A study of Mus musculus with 8 samples.

Results

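Kidney rudiments of mouse embryos hold a thin mantle of mesenchyme around the nascent ureter, and the T-box transcription factor Tbx18 marks these cells. The comparison described here sets 2 arrays from Tbx18(cre/+);Hprt(Tbx18VP16) embryos against 3 control arrays from Tbx18 (GFP/+) embryos, 5 of the 8 arrays of the series, and reads 20479 genes on them. The members are the arrays with those titles, measured on the 39429 probes whose names are on both array designs. The other 3 arrays came from Tbx18 (GFP/GFP) embryos, called Tbx18 null below.

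Embryos were NMRI mice at E11.5, and each array held a pool of about 100000 GFP-positive cells of both sexes. Control embryos carried 1 GFP allele of Tbx18 and 1 intact allele. Tbx18VP16 embryos carried 1 Cre allele of Tbx18 and 1 intact allele, together with a CAG-driven cassette for Tbx18VP16 and GFP in the X-linked Hprt locus. Cells were thus sorted on GFP made from the Tbx18 locus in the controls and from the Hprt locus in the Tbx18VP16 pools. The control arrays were of one array design on slides 1 and 2, and both Tbx18VP16 arrays were of another design on slide 3. Genotype, source of GFP, array design and slide therefore cannot be told apart in any value below. Labels call the samples replicates, and the adjusted p values measure only the spread between such pools.

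As background, Tbx18 represses transcription, and cells that lose it fail to form the muscular coat of the ureter. VP16 is the activation domain of a viral protein, and fusing it to a DNA-binding repressor turns the repressor into an activator. In this kind of allele Cre switches the cassette on for good, so descendants of cells that once made Cre keep the fusion and GFP. In bulk pools, fewer cells of a type and less RNA per cell cannot be told apart.

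Levels are log2 signals relative to the 75th percentile of each array, so a level of 0 lies at that percentile. Changes are differences of mean levels, Tbx18VP16 minus control, in log2 with the standard error of a limma fit to all 8 arrays. A gene was called at a Benjamini-Hochberg adjusted p under 0.05 over all genes tested. On each array 60.1% to 66.0% of probes exceeded background by the scanner software's own rule (called well above background here), and saturated spots numbered 0. The Tbx18VP16 arrays correlated at 0.995 with each other, and the controls at 0.965 to 0.983, over all genes tested. The median SD of a gene was 0.14 in Tbx18VP16 and 0.39 in control pools, and the fit pooled the spread over the 3 groups.

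The engineered loci were read first. Tbx18 stood at -0.02, 1.2 and 1.04 in the controls and at 1.34 and 1.06 in the Tbx18VP16 pools. The groups overlapped, and the change of 0.46 ± 0.46 (SE) did not pass (adjusted p = 0.582). The Tbx18 probe lies on chromosome 9 from 87599514 to 87599573 (mm9). The sources used here do not give whether the transgene or either allele carries that stretch. Hprt, which encodes an enzyme of purine salvage and whose locus holds the transgene, stood at 2.74, 1.93 and 1.99 in the controls and at -1.95 and -1.57 in Tbx18VP16 pools. Its fall of 15.7-fold (change -3.98 ± 0.32 SE, adjusted p = 0.000947) left no overlap, and the null pools were at 2.82, 2.40 and 2.87. Of the other purine salvage and synthesis genes none of the 13 tested was called. The Hprt probe thus set both Tbx18VP16 arrays apart from the 6 others.

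Tbx18VP16 pools differed from control pools in 1108 genes (5.41% of those tested). Of these, 431 were higher (2.10%) and 677 lower (3.31%), and 1093 changed at least 2-fold. At an unadjusted p under 0.05 there were 4671. Of all 20479 genes tested, called or not, 12101 were lower in Tbx18VP16 pools, a base for the list counts below. Probes without a gene name counted as genes of their own, and 16746 of the 20479 genes tested had a RefSeq name. All 1108 had groups that did not overlap, but so had 47.8% of all genes, so non-overlap alone says little here. The split between directions moved with the scaling. With arrays scaled to their median 555 were called higher and 407 lower, and after quantile normalisation 562 and 626. The authors' deposited values gave 560 and 566, but differ in more than scaling, with 11190 probes of each array at a floor of 10. Counts also leaned on single arrays. Without control 1, 2 or 3, the limma fit called 814, 322 and 921 genes, and without Tbx18VP16 array 1 or 2 it called 81 and 58. All 1108 kept their sign in each of these fits.

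Of the 115 called genes that the naming rule took, 23 stayed called in all 20 alternatives, and the following genes without a remark are among them: Adra2a, Cnr1, Npy, Grp, Kcnab1, C1qtnf7, Gjb2, Tlx1, Irf5, Egln3, Ifi204, Hprt, Dcn, Dkk1, Cdh9, Nts, Sstr1 and Sntg1. Most of the 115 lost the call where 1 Tbx18VP16 array was left out, 80 genes without array 1 and 90 without array 2. Without control 2, 37 lost it, and without controls 1 and 3, 14 and 15. Below, "lost without each Tbx18VP16 array" means that neither fit with 1 of the 2 arrays left out called the gene.

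Adra2a, Cnr1, Npy, Grp, Kcnab1 and C1qtnf7 were among the 20 largest rises, as were the platelet genes Pf4, Ppbp, Gp9 and Treml1 described further on. Adra2a, which encodes an alpha-2 adrenergic receptor, stood at -6.02, -5.24 and -5.30 in the controls and at 0.29 and 0.57 in the Tbx18VP16 pools, a change of 5.95 ± 0.35 (SE, adjusted p = 0.000577). It was well above background in 2 of 3 controls. Cnr1, the cannabinoid receptor gene of the nervous system, stood at -5.11, -4.85 and -4.80 against 0.21 and 0.45, a rise of 38.1-fold (adjusted p = 0.000538). Null pools lay between the 2 groups for both genes, with changes of 1.7 and 1.81, and Tbx18VP16 pools were higher than null pools in the same fit (adjusted p = 0.00224 for each). Npy, a neuropeptide made by sympathetic and other neurons, went from -3.61, -3.66 and -3.35 to 0.76 and 1.85 (28.8-fold, adjusted p = 0.000767), while its null pools were at -3.58, -3.10 and -2.82. Grp, the gastrin-releasing peptide gene, rose by 4.63 ± 0.35. Kcnab1, a potassium channel beta subunit, was at -2.82, -3.74 and -2.90 in controls and at 1.63 and 1.70 with the fusion. C1qtnf7, a secreted protein of the C1q and TNF-related family, rose 50.2-fold from levels that were well above background in 2 of 3 controls, and another of its probes had a change of 2.87 (adjusted p = 0.0143). In each of these 6 genes the lowest Tbx18VP16 array was more than 4 log2 units above the highest control array.

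**Figure D1:**
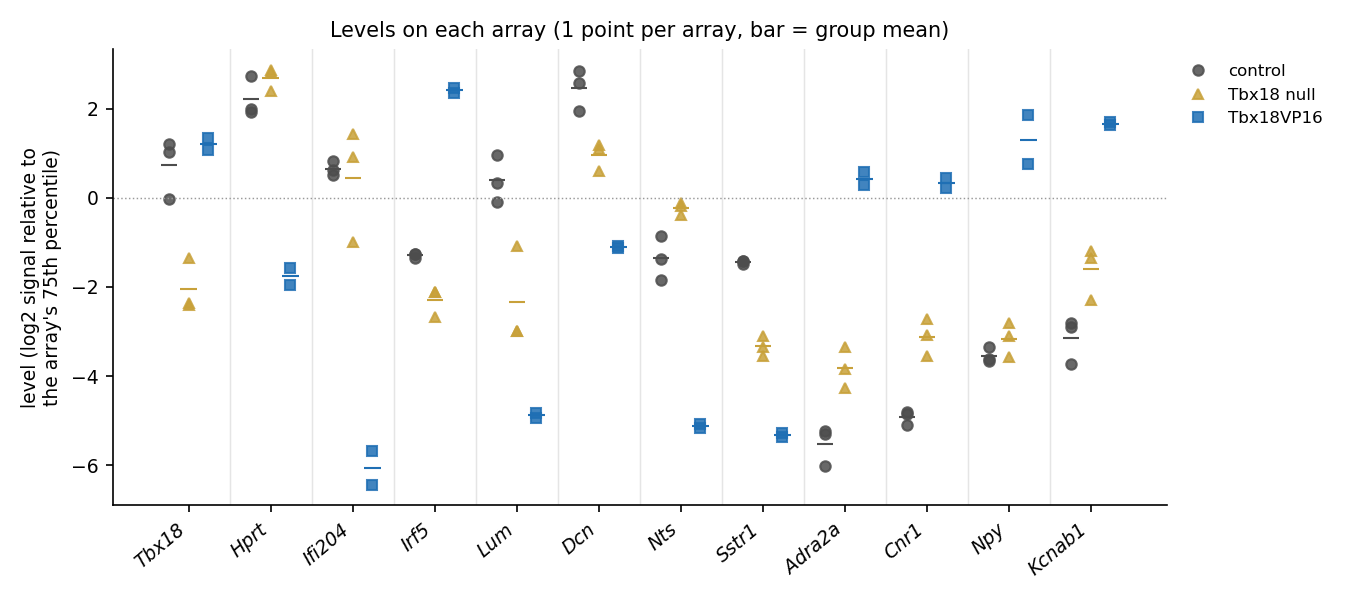
Levels of 12 genes on each of the 8 arrays, in log2 signal relative to the array's 75th percentile, with 1 point per array and a bar for the group mean. Tbx18 overlaps between control and Tbx18VP16, and the other 11 genes do not; Irf5 and Nts have null pools on the far side of control from Tbx18VP16.

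Some rises began from probes that no control array had well above background, and their folds are lower bounds. Gjb2, which encodes the gap junction protein connexin 26, was at least 37.3-fold higher (adjusted p = 0.000788). Of the 10 connexin genes tested it was the 1 that was called. Tlx1, a homeobox gene that the spleen needs to form, was at least 13.9-fold higher, with Tbx18VP16 levels of -3.11 and -3.12. Wt1, which is on the same list of 8 splenic mesoderm genes, was the other called member, and Nkx2-3, Nkx2-5, Nkx3-2, Barx1 and Tcf21 were not called, with changes from -1.0 to 1.55. Egln3, a prolyl hydroxylase of oxygen sensing, was at least 27.0-fold higher. Its change in the null pools was 4.2 (Tbx18VP16 against null adjusted p = 0.115). Of the 28 hypoxia and glycolysis genes tested, Egln3 and Pdk1 were called higher and Adm lower, with a list median of -0.02. Pdk1 rose by 1.04 and lost its call in 7 of the alternatives, all 5 that left out an array among them. Adm, the adrenomedullin gene, fell by 1.96 and was lost without each Tbx18VP16 array.

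Genes of secreted WNT regulators were called in both directions. R-spondins amplify WNT signalling at the receptor, while Dkk and Sfrp proteins block receptor or ligand. Rspo1 stood at -0.64, -2.06 and -1.37 in controls and at 2.42 and 2.85 in Tbx18VP16 pools, a change of 3.99 ± 0.44 (adjusted p = 0.00405). Rspo2 went from -2.77, -3.03 and -3.14 to -0.13 and 0.03, a change of 2.93 ± 0.28 (adjusted p = 0.00245). Rspo3 lay at 0.23, 0.24 and 0.24 and moved to 2.61 and 2.74, a change of 2.44 ± 0.25 (adjusted p = 0.00302). The 3 genes differed in their null values. Null pools were above every control for Rspo1 (2.63, 1.89 and 2.69) and Rspo3 (0.46, 0.80 and 1.12), but not for Rspo2 (-3.73, -3.75 and -3.06). For Rspo2 and Rspo3 they were nearer to control than to Tbx18VP16, which exceeded null with adjusted p of 0.00224 and 0.012. Without Tbx18VP16 array 2 none of the 3 calls held, and without array 1 that of Rspo3 was lost.

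Dkk1, Dkk2, Sfrp1 and Sfrp2, antagonist genes, were called lower, while Dkk3, Sfrp4, Sfrp5, Frzb, Wif1, Sost, Sostdc1 and Notum were not called, with changes from -2.45 to 1.47. Dkk1 fell 13.8-fold, from 1.39, 1.5 and 1.54 to -2.34 and -2.28 (adjusted p = 0.000577), and its null pools at 0.75, 0.87 and 0.35 were also above the Tbx18VP16 pools (adjusted p = 0.00224). Dkk2 had a change of -3.60 ± 0.42 (adjusted p = 0.00439) and null levels of -4.74, -4.03 and -3.82. Sfrp2 fell 5.52-fold, from 3.64, 4.5 and 4.1 to 1.84 and 1.40 (adjusted p = 0.0066). Sfrp1 had the smallest of these falls, at -0.92 ± 0.20 (adjusted p = 0.042), and lost its call in 11 of the 20 alternatives. The calls of Dkk2 and Sfrp2 were lost without each Tbx18VP16 array.

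Among the 46 WNT genes tested, 6 were called higher and 4 lower (21.7% called, beside 5.41% of all genes), with a median change of 0.36 beside -0.14 over all genes. That median ran from -0.08 under normexp background correction to 0.82 with the percentile taken over every spot, filler spots included. The receptor genes Fzd10 and Ror2 had changes of 1.69 ± 0.22 and 1.48 ± 0.23 (adjusted p = 0.00763 and 0.0137). Sp5, a direct target of canonical WNT signalling, was at least 12.8-fold higher (adjusted p = 0.0064), with a null change of 3.59. Axin2 and Lef1, target genes as well, were not called. Axin2 stood at -7.28, -4.63 and -3.91 in controls and at -3.96 and -3.97 in Tbx18VP16 pools, a change of 1.31 ± 0.94 (adjusted p = 0.367). Lef1 had a change of 1.14 ± 0.50 (adjusted p = 0.224). Wnt4 and Wnt5a, ligand genes of forming nephrons and of mesenchyme, had changes of 1.43 and 1.44 with adjusted p of 0.223 and 0.173.

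**Figure D2:**
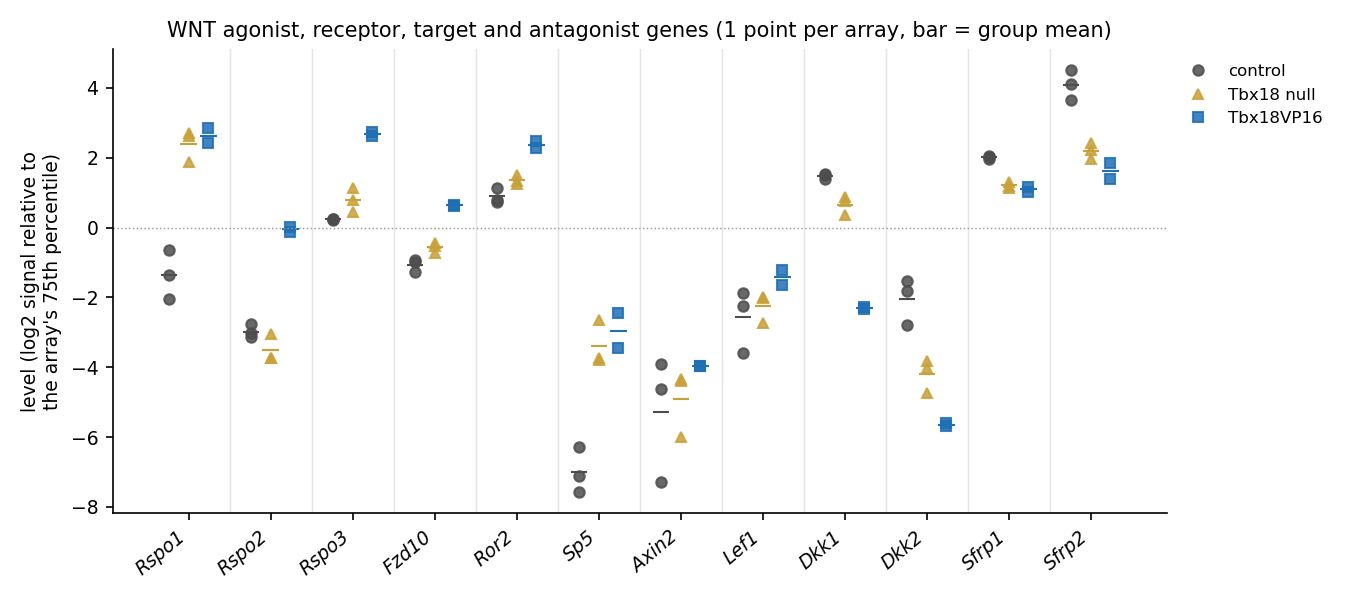
Levels of 12 genes of the WNT pathway on each array (log2 signal relative to the array's 75th percentile), with 1 point per array and a bar for the group mean. Rspo1, Rspo2 and Rspo3 are higher and Dkk1, Dkk2, Sfrp1 and Sfrp2 lower in both Tbx18VP16 pools than in all 3 controls, while Axin2 overlaps.

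Matrix genes moved in both directions. Lum, a small leucine-rich proteoglycan of collagen-rich mesenchyme, stood at 0.34, -0.09 and 0.96 in controls and at -4.94 and -4.83 in Tbx18VP16 pools, a fall of 38.9-fold (adjusted p = 0.00407, lost without each Tbx18VP16 array). Dcn, a related proteoglycan, fell 11.8-fold, from 2.84, 1.95 and 2.58 to -1.14 and -1.08 (adjusted p = 0.00169). Null pools were intermediate for both, with changes of -2.75 and -1.5. The 3 matrix genes called higher were Loxl1, Eln and Ltbp1. Loxl1, which cross-links elastin, rose by 2.30 ± 0.26 (adjusted p = 0.00429, lost without Tbx18VP16 array 2), and Eln and Ltbp1, elastin itself and a microfibril protein, had changes of 1.94 and 2.14. Another probe of Ltbp1 had a change of 0.14 (adjusted p = 0.799). Fbln5, which binds elastin, had a change of -2.09 ± 0.48, smaller in size than the -3.66 of the null pools. Tnc, a matricellular glycoprotein, was called lower from dim levels and was lost in 5 alternatives. Of the 36 matrix genes tested 3 were called higher and 4 lower (19.4% called, beside 5.41% of all genes). Called or not, 25 were lower, beside 12101 of all 20479 genes. The list median was -0.55 in Tbx18VP16 and -0.63 in null pools.

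Adhesion genes of 3 families were called. Cdh22 rose 15.9-fold, from -3.93, -4.83 and -4.57 to -0.70 and -0.20, while Cdh9 fell 13.7-fold, from -0.75, -0.95 and -0.25 to -4.39 and -4.46. Both are cadherins, which join like cells, and the adjusted p were 0.00317 (lost without Tbx18VP16 array 2) and 0.00063. Cdh6, a cadherin of early nephrons, and Cdh8 had changes of -1.99 and -2.20. Thus 1 of 16 cadherins was called higher and 3 lower (25% called, beside 5.41% of all genes). Itga7, a laminin-binding integrin subunit, rose from -6.28, -6.92 and -6.10 to -0.96 and -0.53, and was well above background in 1 of 3 controls. The laminin chains split, with Lama5 up by 1.79 ± 0.31 and Lama2 down by 2.17 ± 0.38 (adjusted p = 0.0185 and 0.0192). Of the 27 basement membrane and integrin genes 4 were called higher and 1 lower (18.5% called, beside 5.41% of all genes). The calls of Cdh6, Cdh8, Itga7, Lama5 and Lama2 were lost without each Tbx18VP16 array, and those of Cdh6, Cdh8, Lama5 and Lama2 without control 2 as well. Cdh8 was lost in 8 alternatives in all.

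Guidance cues added 4 rises and 1 fall among 51 genes (9.8% called, beside 5.41% of all genes). Ntn1, which encodes the secreted cue netrin 1, went from -4.10, -4.00 and -4.87 to -1.02 and -1.01 (9.90-fold, adjusted p = 0.00365). Sema3e, a secreted semaphorin, was at least 4.99-fold higher. Epha7, an Eph receptor, fell from 2.67, 2.48 and 2.22 to 0.85 and 0.42 (adjusted p = 0.0123). These 3 calls were lost without each Tbx18VP16 array, that of Epha7 without control 2 as well, and that of Sema3e under normexp background correction.

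BMP and TGF-beta genes, 39 tested, gave 4 rises and 1 fall (12.8% called, beside 5.41% of all genes), with a median of -0.05. Gdf6, a BMP family ligand, went from -6.55, -4.73 and -4.98 to -1.19 and -1.1 (adjusted p = 0.0123, lost without each Tbx18VP16 array). Inhba, a subunit of activin, rose by 2.05 ± 0.27 from dim levels, with 1 of 3 controls well above background. Its call was lost without each Tbx18VP16 array and under normexp, where the change was 0.255. Tgfbr3, a co-receptor, rose by 1.19 ± 0.26 and was lost in 6 alternatives. Of 26 FGF genes 1 was called, Etv4, a transcription factor that FGF and RET signals induce, which rose from 0.91, 0.1 and -0.03 to 2.09 and 2.34 (adjusted p = 0.0215). Its null change was 2.48, and the call was lost without each Tbx18VP16 array and without control 2. Jag2, a Notch ligand, was the 1 call among 19 Notch genes, with a change of 2.77 ± 0.58, lost without any 1 of the 5 arrays.

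Wt1 and Meox1 were called higher on the list of nephron progenitor genes. Wt1, a zinc finger factor of nephron progenitors and coelomic mesoderm, stood at 2.29, 1.48 and 1.82 in controls and at 4.30 and 4.66 in Tbx18VP16 pools, a rise of 6.12-fold (adjusted p = 0.00429). Meox1, a homeobox gene of mesoderm, rose by 3.9 ± 0.65, and its null change was 3.1. Six2, which maintains nephron progenitors, was at 0.44, 0.14 and 0.63 against 0.85 and 1.14 and was not called (change 0.59 ± 0.59, adjusted p = 0.589), beside a null change of 2.52. The nephron progenitor list had 3 of 23 genes called higher and 1 lower (17.4% called, beside 5.41% of all genes). The lower one was Bmper, a secreted BMP modulator with a change of -1.47. The list median was 0.23 in Tbx18VP16 and 0.86 in null pools. The calls of Wt1, Meox1 and Bmper were lost without each Tbx18VP16 array, that of Meox1 also without control 2, and that of Bmper without any 1 of the 5 arrays.

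Foxf1, Foxf2, Hoxb2 and Hoxb4, developmental transcription factor genes, were also called higher. Foxf1 and Foxf2, targets of Hedgehog signals in mesenchyme, went from -1.53, -2.12 and -2.48 to 1.17 and 0.63 and from 1.42, 0.84 and 0.57 to 3.2 and 2.9 (adjusted p = 0.0121 and 0.0164). Of the other 15 Hedgehog pathway genes tested none was called, and the list median was 0.01. Hoxb2 rose from 0.29, 0.50 and 0.42 to 2.91 and 2.96, and Hoxb4 from -0.22, -0.42 and -0.32 to 1.51 and 1.53 (adjusted p = 0.00429 for each). Null changes were 1.96 and 1.21, and Tbx18VP16 did not differ from null past the threshold (adjusted p = 0.28 and 0.131). These 4 calls were lost without each Tbx18VP16 array, and those of Foxf1 and Foxf2 without control 2 as well.

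Genes of the mesenchyme around the ureter were 22 in number, with 2 called higher (Foxf1 and Foxf2) and 3 lower. Their share called was 22.7%, beside 5.41% of all genes. Car3, a carbonic anhydrase, fell from 3.14, 2.62 and 2.8 to -0.37 and -0.54 (9.90-fold, adjusted p = 0.00664), and Hopx, an atypical homeodomain gene, had a change of -2.63 ± 0.34, both lost without each Tbx18VP16 array. Sntg1, a syntrophin gene, was well above background on neither Tbx18VP16 array and was at least 11.2-fold lower. In the null pools the changes of these 3 genes were -2.63, -2.56 and -2.73, and none differed between the 2 altered genotypes past the threshold (adjusted p from 0.0638 to 0.919). Smooth muscle genes, 13 tested, had 0 calls in the limma fit and a median of 0.21. Renal stroma genes gave 2 rises, Ntn1 and Smoc2, and 3 falls, Dcn, Sfrp1 and Ren1, of 22 (22.7% called). The call of Smoc2 was lost without each Tbx18VP16 array. Foxd1, which defines the renal stroma, had a change of 0.97 ± 0.36 (adjusted p = 0.164). The 11 T-box genes tested, Tbx2 and Tbx3 among them, gave no call, with changes from -1.01 to 3.2.

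Nts and Sst, which encode secreted peptides, and Sstr1 were called lower. Nts, the neurotensin precursor gene, stood at -1.85, -1.37 and -0.85 in controls and at -5.17 and -5.08 in Tbx18VP16 pools (13.6-fold lower, adjusted p = 0.000995). Null pools were at -0.40, -0.18 and -0.12, above the controls on every array, and the difference between Tbx18VP16 and null passed (adjusted p = 0.00113). Sst, which encodes somatostatin, fell from 0.22, 0.57 and 0.77 to -1.82 and -2.3 (adjusted p = 0.00779, lost without each Tbx18VP16 array). Sstr1, a somatostatin receptor gene, fell 14.7-fold, from -1.48, -1.42 and -1.41 to -5.28 and -5.36. Another of its probes had a change of -0.54 and was not called (adjusted p = 0.776).

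Innate immunity genes held the extreme of the falls and 1 rise. Ifi204, an interferon-inducible gene whose protein senses DNA, stood at 0.83, 0.51 and 0.62 in controls and at -6.43 and -5.67 in Tbx18VP16 pools, where 1 of 2 arrays was well above background (change -6.71 ± 0.64, adjusted p = 0.00232). Members of the Ifi200 cluster are near-identical in places, so a probe may not tell them apart. Irf5, a transcription factor of interferon responses, rose 13.1-fold, from -1.36, -1.25 and -1.27 to 2.47 and 2.36, whereas null pools were at -2.12, -2.11 and -2.68 (Tbx18VP16 against null adjusted p = 0.000778). The wider list of 27 interferon-response and Ifi200 genes had 1 call higher and 2 lower and a median of -0.39.

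Of 28 p53 target genes tested 6 were called higher (21.4%, beside 2.10% of all genes) and 0 lower, and the median was 0.39 in Tbx18VP16 and 0.08 in null pools. No control array had 3 of the 28 well above background, Pmaip1 and Gdf15 among them. Such genes were tested only because arrays of the other groups were brighter, which favours rises. Phlda3, an inhibitor of Akt, went from 0.84, 0.92 and 0.82 to 2.12 and 2.54 (adjusted p = 0.0121), and Ccng1, a cyclin G gene, from -0.04, 0.02 and -0.12 to 1.38 and 1.16 (adjusted p = 0.0177). Null pools were near control for both, at 1.06, 1.08 and 0.96 and at -0.27, 0.01 and 0.13, and below Tbx18VP16 (adjusted p = 0.0243 for each). Pmaip1, a pro-apoptotic gene, was at least 18-fold higher. Gdf15, a secreted stress-response factor and another of the 6, was well above background in no control and rose by 1.75 ± 0.26, but had a change of -0.072 under normexp and lost its call there, without each Tbx18VP16 array and without control 2. Cdkn1a, the cell cycle inhibitor p21, went from -5.96, -4.19 and -4.69 to -1.60 and -1.44 (adjusted p = 0.035), with null pools at -4.15, -2.32 and -1.91, and lost its call without any 1 of the 5 arrays. Another probe of Cdkn1a had a change of 2.18 (adjusted p = 0.0552). Of 6 CDK inhibitor genes tested Cdkn1a and Cdkn2b were called, and Cdkn2b, at least 10.85-fold higher, had a null change of 3.82 and was lost under normexp. The calls of Phlda3, Ccng1 and Pmaip1 were lost without each Tbx18VP16 array, and that of Ccng1 also without control 2. Replication and mitosis genes, 37 tested, had 0 calls in the limma fit and a median of -0.03.

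**Figure D3:**
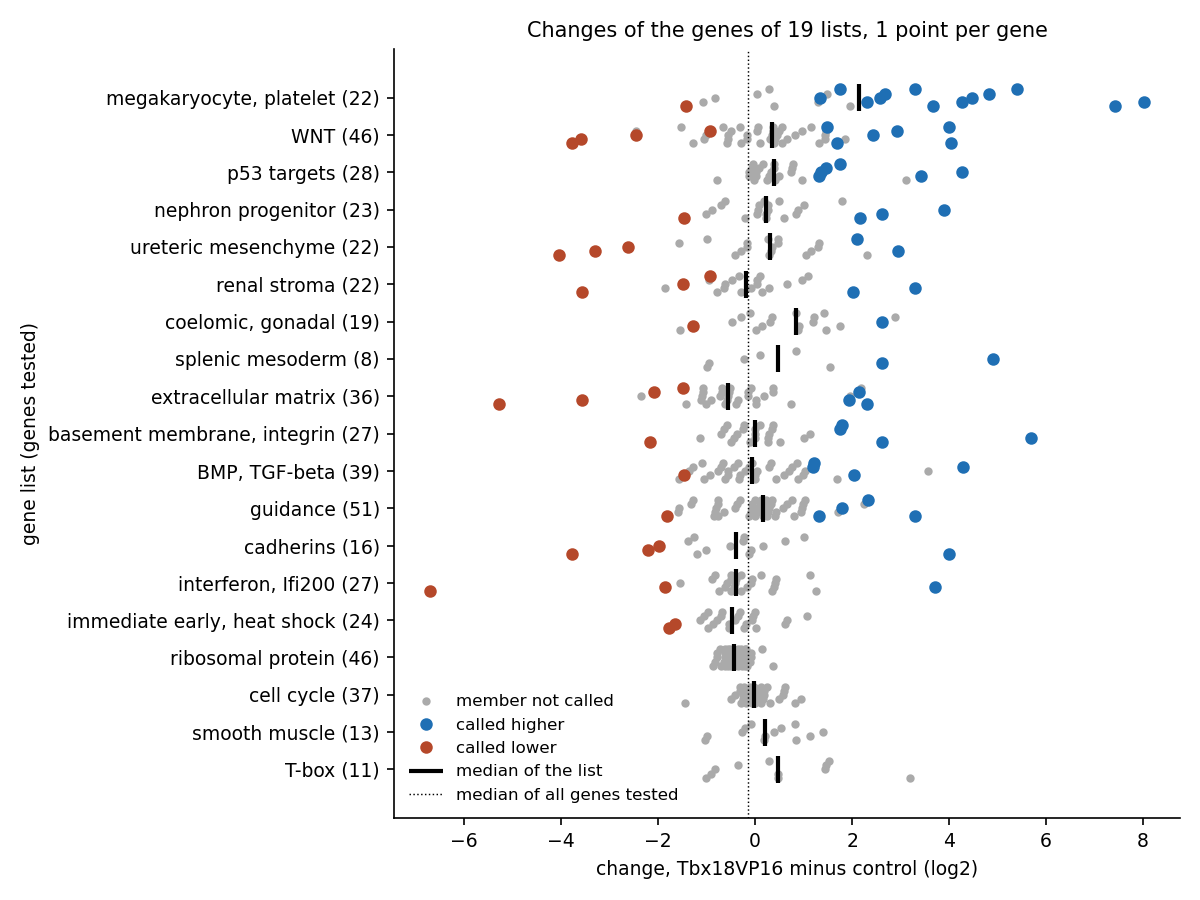
Changes of the tested genes of 19 lists, Tbx18VP16 minus control in log2, with 1 point per gene, called genes in colour, a bar at the list's median and a dotted line at the median of all genes. Platelet genes have a median of 2.14; ribosomal protein genes lie mostly below 0 with no call.

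Markers of other cells were measured beside these groups. Of 22 megakaryocyte and platelet genes 13 were called higher and 1 lower, with a median change of 2.14. No control array had 8 of the 22 well above background. These 8 were tested only because arrays of the other groups were brighter, which favours rises. The share called (63.6%, beside 5.41% of all genes) is therefore not a like comparison. Under normexp background correction the median was 0.66, and Gp6, Tubb1, Gp1ba and Gp5, genes of platelet glycoproteins and of a platelet tubulin, lost their calls. The same calls were lost without Tbx18VP16 array 2, and those of Gp1ba and Gp5 without array 1 as well. Pf4, a platelet chemokine, stood at -7.17, -4.74 and -5.24 in controls and at 1.83 and 2.78 in Tbx18VP16 pools (adjusted p = 0.039, lost without any 1 of the 5 arrays). The null pools were at -6.45, -1.6 and 0.42, so null replicate 3 lay nearest to the Tbx18VP16 pools. Ppbp, Gp9 and Treml1 were well above background in no control, and were at least 92.7-fold, 19.2-fold and 27.3-fold higher. Their calls were lost without control 2 and without each Tbx18VP16 array. Medians of the list over genes were -6.14, -5.43 and -5.76 in controls, -5.94, -4.78 and -3.54 in null and -3.53 and -2.93 in Tbx18VP16 pools. The log2 of the signal summed over the 22 genes lay between 2.89 and 3.34 in control and between 3.33 and 4.0 in Tbx18VP16 arrays. Rises of other genes moved together with these platelet genes on the same 2 arrays, and their part in those rises was not tested.

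**Figure D4:**
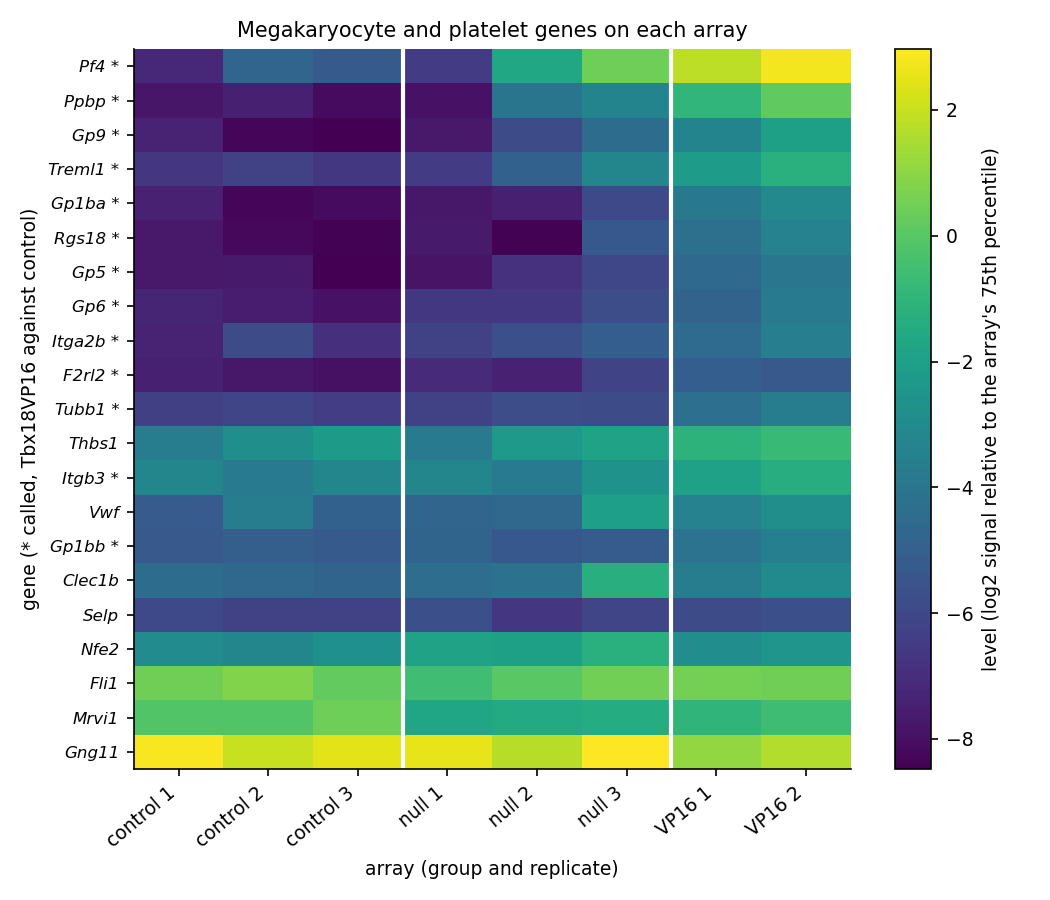
Levels of 21 of the 22 megakaryocyte and platelet genes on each array, as colour (log2 signal relative to the array's 75th percentile), ordered by the change and with a star where called. Pf4, Ppbp, Gp9 and Treml1 are brightest in the 2 Tbx18VP16 pools, next in null 3 and dim in controls.

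The lists of other cell types gave 0 to 5 calls each. Erythroid genes, ureteric epithelium genes and skeletal muscle genes had 0 calls among 15, 22 and 9 tested in the limma fit, with medians of -0.86, -0.21 and 0.30. Of 17 leukocyte genes 12 were higher, 1 of them called (Lyz2, dim in controls), with a median of 0.83. Of 16 endothelial genes 12 were lower, 1 of them called (Kdr), with a median of -0.54. Another probe of Kdr had a change of 0.07. All 5 liver cell genes tested were lower, with a median of -1.22, and Apob, the apolipoprotein B gene, was called and lost its call in 10 alternatives. Of 20 neural genes 2 were called higher, Hand2 and Prph, and 3 lower, Stmn2, Tubb3 and Nefm (25% called, beside 5.41% of all genes), with a median of -0.24. The part of these cell types in the other changes was not tested. The calls of Lyz2, Kdr, Hand2, Prph, Stmn2 and Tubb3 were lost without each Tbx18VP16 array. Over all alternatives Lyz2 lost its call in 10, Kdr in 9 and Tubb3 in 7, and Prph lost it under normexp as well. Ptprc, the pan-leukocyte marker, was not among the genes tested. The defining markers Pecam1, Ret, Sox10 and Hba-a1 had changes of -0.39, 0.53, -0.37 and -2.07, with adjusted p from 0.51 to 0.85.

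Klf6 and Nr4a1 were called lower on the list of immediate early and heat shock genes, which can rise when tissue is dissociated. Klf6 stood at 3.38, 3.22 and 3.04 in controls and at 1.65 and 1.46 in Tbx18VP16 pools, and Nr4a1 at 3.22, 3.02 and 3.6 against 1.38 and 1.62 (adjusted p = 0.0103 and 0.0161, both lost without each Tbx18VP16 array). Of the 24 genes tested 20 were lower, 2 of them called (8.33%, beside 5.41% of all genes called in either direction). The list median was -0.47 in Tbx18VP16 and 0.08 in null pools. Ribosomal protein genes were lower in 44 of 46 (beside 12101 of all 20479 genes) with 0 calls in the limma fit. Their median was -0.43 against -0.14 over all genes. That median depended on the scaling: it was -0.05 after quantile normalisation and ran from -0.51 to 0.03 over the alternatives. These 2 lists moved with genotype, array design and slide at once.

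Calls were also counted by level. Of genes with a control mean above 0, 2.25% were called, 25 higher and 162 lower, and of those from -3 to 0, 5.07%, 83 higher and 189 lower. From -6 to -3 the share was 8.3%, 140 higher and 310 lower, and this class held the most calls. In the lowest class, at -6 or lower, 0 of 1397 genes were well above background on all 5 arrays. Genes there passed the filter through arrays where they were brighter, which favours rises, so their calls (183 higher and 16 lower) are given as a count alone. Of the 17004 genes well above background on all 5 arrays, 225 were called higher and 438 lower (3.90% in all).

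**Figure D5:**
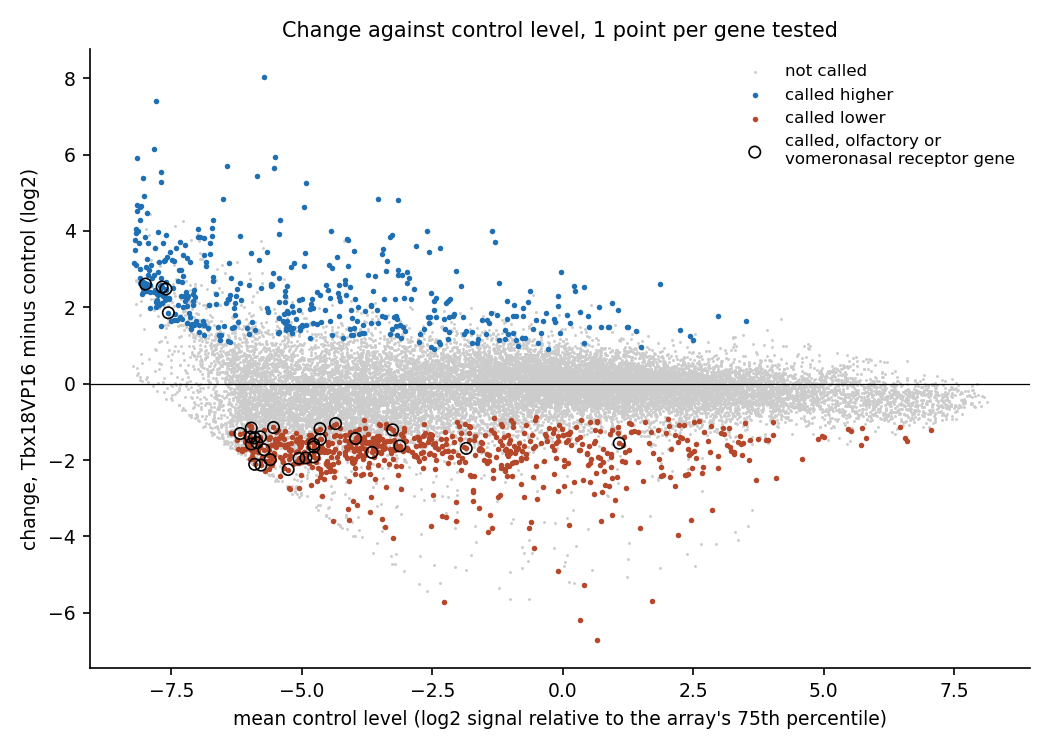
Change (log2, Tbx18VP16 minus control) against the mean control level for each of the 20479 genes tested, with called genes coloured and called olfactory or vomeronasal receptor genes ringed. Of 31 ringed genes 27 lie below 0, and their control means run from -6.18 to 1.08.

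Olfactory and vomeronasal receptor genes, which serve the nose, are not markers of any cell type listed above. This class was chosen after the values were seen. The class was taken as all genes with Olfr or Vmn symbols. Of 226 tested, 27 were called lower (11.9%, beside 3.31% of all genes) and 4 higher, with a median change of -0.98. Their medians were -4.95, -5.43 and -5.58 in controls, -4.78, -5.49 and -5.62 in nulls and -6.05 and -6.24 in Tbx18VP16 pools. The called falls ran from -2.25 to -1.04, and 19 of the 27 genes were well above background on neither Tbx18VP16 array. Of the falls named above, Tnc and Apob were the dimmest in controls, with means of -6.24 and -5.88, and Ren1 had a mean of -4.09.

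Further called genes had levels near or above the 75th percentile in 1 of the 2 groups. Slc8a3, a sodium and calcium exchanger, went from 2.55, 2.12 and 1.8 to -0.47 and -0.56, with null pools at 2.22, 2.02 and 1.89 (Tbx18VP16 against null adjusted p = 0.00598). Asb4, an ankyrin repeat gene, went from 4.13, 3.1 and 3.87 to 0.96 and 1.37, with a null change of -1.87. Sphk1, a sphingosine kinase, fell 12.2-fold, to -3.09 and -2.64, and null pools were at -3.01, -3.22 and -2.44. On the rising side, Bcl11a, a zinc finger factor, went from -0.01, -0.49 and 0.39 to 2.64 and 3.15 (other probes changed by 2.5 and by -0.52, the latter not called), and Scube3, a secreted protein, from 0.98, 0.98 and 1.2 to 2.88 and 3.07. Crabp1 and Rdh10, which bind retinoic acid and make its precursor, rose by 1.77 and 1.39 (adjusted p = 0.00894 and 0.0216), 2 of 18 retinoic acid genes. Each call of this paragraph was lost without Tbx18VP16 array 2, each but that of Slc8a3 without array 1, that of Rdh10 without control 2 and that of Scube3 with the mean of its probes.

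Of the 1108 genes called against control, 623 also differed from null, 207 of the higher and 416 of the lower ones. Over all genes, 3.82% differed between Tbx18VP16 and null. Both contrasts share the Tbx18VP16 arrays. Between these 2 sets of arrays the array designs differ as well.

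Position along the chromosomes was read at the probes' mm9 coordinates. Within 5 Mb of Hprt, 5 of 58 tested genes were called (8.62%, beside 5.41% of all). Ccdc160, 0.22 Mb away, went from -3.22, -3.17 and -2.86 to -0.28 and -0.21 (adjusted p = 0.00149), and null pools were at -0.08, -0.52 and -0.58. The part of the transgene in this change was not tested. Within 5 Mb of Tbx18, 2 of 51 genes were called (3.92%).

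The T-box motif AGGTGTGA, searched on both strands, was held by few promoters in the RefSeq table (GRCm38.p6, 250 bases before to 50 after each start). It was in 1.67% of the promoters of genes called higher (5 of 299), in 0.99% of those called lower (4 of 404) and in 1.18% of all tested genes with a promoter (155 of 13107). The 3 matches nearest to a start among called genes with a symbol that is no clone name are printed because they let the motif be seen in its setting, in capitals and 5′ to 3′ along the gene. They belong to Cdkn1a (chr17:29093742-29093798, plus strand), to Nkg7 (chr7:43437084-43437167, plus strand) and to Stat5a (chr11:100859555-100859642, plus strand).
Cdkn1a: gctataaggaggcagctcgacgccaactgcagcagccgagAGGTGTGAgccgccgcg
Nkg7: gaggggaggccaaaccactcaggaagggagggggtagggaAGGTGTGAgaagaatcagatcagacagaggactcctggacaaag
Stat5a: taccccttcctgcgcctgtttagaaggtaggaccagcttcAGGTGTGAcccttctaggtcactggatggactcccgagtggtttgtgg
The match begins 13 bases after the annotated start in Cdkn1a, 14 before it in Nkg7 and 61 before it in Stat5a. Cdkn1a and Stat5a, a transcription factor of cytokine signalling, were called higher, with changes of 3.42 and 1.18, and Nkg7, a gene of cytotoxic lymphocyte granules, lower, with a change of -1.76. A match is a description of letters and says nothing of binding.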

How the data were processed

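Each array held RNA from 1 pool of sorted cells. The scanner files hold the authors' deposited spot intensity values from Agilent Feature Extraction 10.7.3.1, background-corrected by that software, per the file headers. A deposited value table of the authors, linear intensity with the same median in every column, served as an alternative. Control spots were dropped, as were outlier spots, 1.86% to 2.55% of each array. The 4 spots of each 60-base probe were averaged, and log2 values minus the array's 75th percentile over the 39429 shared probes were taken. Testing took probes that at least 2 of the 8 arrays had well above background, and the probe of highest mean level stood for each gene. Probes were named through RefSeq tables of GRCm38.p6, 28723 by accession, 3399 by symbol and 247 by synonym, while 2635 kept the file's name and 4383 had none. Control and Tbx18VP16 were compared in a fit of 3 group means on 8 arrays by lmFit and eBayes of limma 3.58.1 under R 4.3.3, two-sided, with Benjamini-Hochberg adjustment, and the fit was tested on simulated data. The same fit gave Tbx18VP16 against null. Where a whole group lacked signal well above background, the fold was bounded from below: on each array of that group the probe's signal was replaced by the array's dimmest well-measured signal if that was higher.

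The rule for named genes took Tbx18 and Hprt, the 20 largest rises and 20 largest falls among non-overlapping calls, the 15 largest of each with all 5 arrays well above background and a mean level above 0, up to 4 called members of smallest p from each of 40 lists, and fixed identity genes. Clone-like names were left out, and some genes it takes are not reported here. Other called list members, the promoter examples, Ccdc160 and non-called members were named after their values were seen. Members and lists were chosen with earlier results of these data known. Lists were counted, not tested. Replicate input was 20 ng of RNA, or 10 ng for control 3 and null 3. Precision is limited by the number of arrays. Alternatives covered scaling, background, filter, probes of a gene, arrays in the fit, variance model, block and each array left out.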

Additional observations from a re-analysis of the deposited data

How the results depend on the processing

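All 1108 calls kept their sign under every alternative that changed the scaling, the values used, the arrays in the fit, the variance model or the block. With normexp background correction 1083 of them did, and with the mean of each gene's probes 1104. Under a filter on the 5 arrays 1081 did, and under a filter on every array of a group 1044, as these filters left some genes untested. Under the latter 1045 of the 1108 were called, so not every call kept its sign. Under normexp 623 genes were called, 209 higher and 414 lower. Scaling to the median left 407 called lower. The 75th percentile taken over every spot, filler spots of the Tbx18VP16 design included, gave 1160 higher and 265 lower, with a median change of 0.322, since 19304 filler spots lower that percentile; this setting was chosen after seeing the data. Leaving out each array in turn gave 58 to 921 calls, 37 to 363 higher and 21 to 611 lower. Where 1 Tbx18VP16 array was left, it was assumed to vary like the other groups. Replicate numbers did not pair control with Tbx18VP16 arrays, with deviations of same-numbered arrays correlating at 0.024 and -0.257. Same-numbered control and null arrays shared a slide. Their deviations were not compared, and the main fit did not pair them. A replicate block in the limma fit gave 3655 calls, 1005 higher and 2650 lower, beside 1108 in the main fit. The slide as a random block (duplicateCorrelation, correlation 0.062) gave 902. Among named genes, Gdf15 turned to -0.072 under normexp. Ret, not called, turned to -0.22 under normexp, and it ran from -0.34 to 1.39 with 1 array left out (-0.055 without control 1, -0.34 without Tbx18VP16 array 1). Pecam1 and Sox10, not called, turned to 0.074 and 0.097 with filler spots. For these 4 genes the cause was not tested. Of 231 other probes of 193 called genes, 191 had the same sign, 59 of them called, and 3 of the 40 of opposite sign were called. Other probes of Cdh6, Lama2, Loxl1, Foxf1 and Scube3 had the same sign and were not called. Fhdc1 is not described for this reason: another of its probes had a change of -4.99. Array design, slide, scan and genotype cannot be told apart in any setting.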
